A study of Mus musculus with 246 samples.

Results

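The 32 genes described here mark the endothelial and mural cells of brain blood vessels and were found by symbol among the 56691 genes of the count table. Of the 32, 24 are endothelial, 5 are pericyte and 3 are smooth muscle genes, and all 32 passed the filter on low counts. The animals were 41 adult outbred male CD1 mice, each of which gave 1 RNA library from each of 6 brain regions. Of the regions, 2 lie in the cortex, the anterior cingulate (ACC) and the medial prefrontal part (mPFC), and the others were the ventral hippocampus (vHipp), the shell of the nucleus accumbens (Nacc), the dorsomedial thalamus (DMT) and the basolateral amygdala (BLA). Early life adversity (ELA) was limited bedding and nesting on postnatal days 2 to 9. During that time the dams carried a gel with vehicle or with SAFit2, an inhibitor of the glucocorticoid receptor co-chaperone FKBP51, at 10 mg per g of gel, and the pups received it through the milk. Ctrl_Veh mice (Ctrl_Vehicle in the labels) had standard rearing with vehicle, ELA_Veh mice (ELA_Vehicle) had adversity with vehicle, and ELA_SAFit2 mice had adversity with SAFit2. All 3 conditions therefore share the gel. SAFit2 was not given without adversity, so its effect on mice without adversity cannot be seen, and the labels do not give the litters. Brains were taken without social interaction (7 mice per condition, 21 mice) or after 10 minutes with an unfamiliar mouse (6 Ctrl_Veh, 7 ELA_Veh and 7 ELA_SAFit2 mice, 20 mice).

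Endothelial cells line the vessels of the brain and form the blood-brain barrier: tight junctions seal the gaps between them, and transporters in their membranes carry glucose, lactate, hormones and lipids. Pericytes sit on the capillary wall and are needed for the barrier to form and to hold, while smooth muscle cells wrap arteries and arterioles and set their width. The members cover these roles. They comprise junction and adhesion genes, receptors for vessel growth factors, transporters, transcription factors, other endothelial genes, pericyte genes and contractile genes of smooth muscle. Some are not restricted to vessels: Tjp1 is made by many cell types, Slc16a1 also by oligodendrocytes, Slco1c1 also by astrocytes, and Ocln and Slco1c1 also by epithelium of the choroid plexus. In a punch, fewer cells of a type and less RNA per cell cannot be told apart.

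Mfsd2a, Ly6c1 and Slc16a1 were the members whose level differed with social interaction in the most regions, and the sequence before their transcription start is printed for that reason. RefSeq's table of mouse promoters (build GRCm38.p6) held 27 promoters of 22 members, and 250 bases before the start were read from each, 5′ to 3′ on the gene's strand. Capitals mark an E-box (CACGTG), a motif that binds many basic helix-loop-helix factors and was found in Slc16a1 alone of the members.
Mfsd2a, chr4:122961189-122961438, minus strand: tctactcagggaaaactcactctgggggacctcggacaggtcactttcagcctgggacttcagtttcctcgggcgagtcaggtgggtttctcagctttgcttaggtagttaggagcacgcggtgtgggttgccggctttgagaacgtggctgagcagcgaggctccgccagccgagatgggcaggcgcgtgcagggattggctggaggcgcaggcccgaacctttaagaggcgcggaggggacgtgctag
Ly6c1, chr15:75048838-75049087, minus strand: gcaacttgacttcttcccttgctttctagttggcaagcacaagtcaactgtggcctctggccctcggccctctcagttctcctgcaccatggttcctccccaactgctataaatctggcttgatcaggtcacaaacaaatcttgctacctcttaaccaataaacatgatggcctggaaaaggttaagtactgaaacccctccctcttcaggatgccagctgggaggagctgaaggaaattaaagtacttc
Slc16a1, chr3:104638414-104638663, plus strand: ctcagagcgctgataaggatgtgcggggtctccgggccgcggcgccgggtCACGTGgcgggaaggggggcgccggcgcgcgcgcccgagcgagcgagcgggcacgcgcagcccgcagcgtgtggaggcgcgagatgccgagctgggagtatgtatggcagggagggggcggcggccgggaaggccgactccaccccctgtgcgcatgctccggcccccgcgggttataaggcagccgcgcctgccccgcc
The E-box starts 200 bases before the Slc16a1 start. Both strands were searched for each motif in the same stretch of all 32851 promoters. The E-box was in 6.02% of them, the GC box GGGGCGGGG in 10.4%, the ETS motif CCGGAA in 12%, the cyclic AMP response element TGACGTCA in 1.55%, and the CArG box of serum response factor, by its name alone, in 1.47%. Among the members' 27 promoters, 5 held the GC box (Slc2a1, Kdr, Flt1, Tjp1 and Ocln), 2 the ETS motif (Kdr and Ocln), 1 the cyclic AMP element (Flt1) and 0 the CArG box. The glucocorticoid response element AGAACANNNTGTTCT was in 0.00913% of all promoters and in 0 of the members'. These matches are descriptions of the letters and show no binding.

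Total counts per library ran from 20804247 to 43351424, and the regions' medians from 27114966 (vHipp) to 30110522 (mPFC). Mouse-specific expression differences (60 genes per region) showed that 12 Nacc libraries matched another mouse than the one on their label. These were 2 in each of the 6 groups, and their correlations with the labelled mouse lay between −0.206 and 0.207. For 1 ACC library the match was less clear, with 0.735 for another mouse and 0.61 for its own. These libraries were kept under their labels, and Nacc values of social interaction and condition that are named are given with and without the 12. Each of the 12 matched a mouse of another condition or set than its label, so the Nacc groups by label mix mice of different groups. Choroid plexus, the tissue that secretes cerebrospinal fluid, was present in the BLA punches. The summed level of its 8 markers there had a median of 2862 CPM, with a range from 24.4 to 6191, against regional medians from 5.03 to 43.1 elsewhere. CPM are counts relative to the library's total, on the usual CPM scale. For sums of cell type markers the total is that of protein-coding counts without TMM scaling, and for all other levels it is TMM-scaled. In 7 further libraries, 6 of the DMT and 1 of the vHipp, that sum exceeded 10 times the region's median. Markers of meninges and fibroblasts were also higher in the BLA (median 292 CPM) and the vHipp (143 CPM) than in the other regions (66.5 to 78.1 CPM). Oligodendrocyte markers were highest in the DMT (5517 CPM, 1463 CPM in the mPFC) and astrocyte markers in the vHipp (1309 CPM). Region and the run of library numbers cannot be told apart.

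All 32 members were detected in every library, with counts from 14 (Higd1b) to 5327 (Slc2a1). Per kilobase of exon, the highest median levels over all libraries were those of Vtn, which encodes the matrix protein vitronectin and is made by pericytes in the brain (24.4 CPM per kb), Itm2a, a membrane protein of brain endothelium (20.2), Rgs5, a regulator of G protein signalling in pericytes (19.1), and Slc2a1, the glucose transporter GLUT1 (18.7). The tight junction genes Cldn5 (15.5 CPM per kb) and Tjp1 (13.8) followed. The lowest were Vwf, encoding von Willebrand factor (0.701 CPM per kb), Anpep, the aminopeptidase N of pericytes (0.744), Emcn, the sialomucin endomucin of capillaries and veins (0.831), and the transcription factor Sox17 (0.937). The defining endothelial genes Cldn5, Pecam1, Cdh5 and Flt1 never fell below 12.6, 6.49, 8.88 and 50.5 CPM in a library.

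A score per class, the mean of log2(CPM + 1) over its genes, gives the overall pattern. The endothelial score had similar medians in the mPFC (4.08), ACC (4.09) and BLA (4.10) and higher ones in the Nacc (4.24), vHipp (4.35) and DMT (4.40). The pericyte score was lowest in the BLA (3.97) and highest in the DMT (4.26). The smooth muscle score departed from both, with medians of 2.48 in the DMT and 3.72 in the vHipp. Its means spanned 1.208 between regions, against 0.295 for the endothelial and 0.293 for the pericyte score, while the median SD within a group of mice was 0.313, 0.073 and 0.098. The mPFC libraries spread most, with smooth muscle scores from 1.43 to 4.08.

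**Figure D1:**
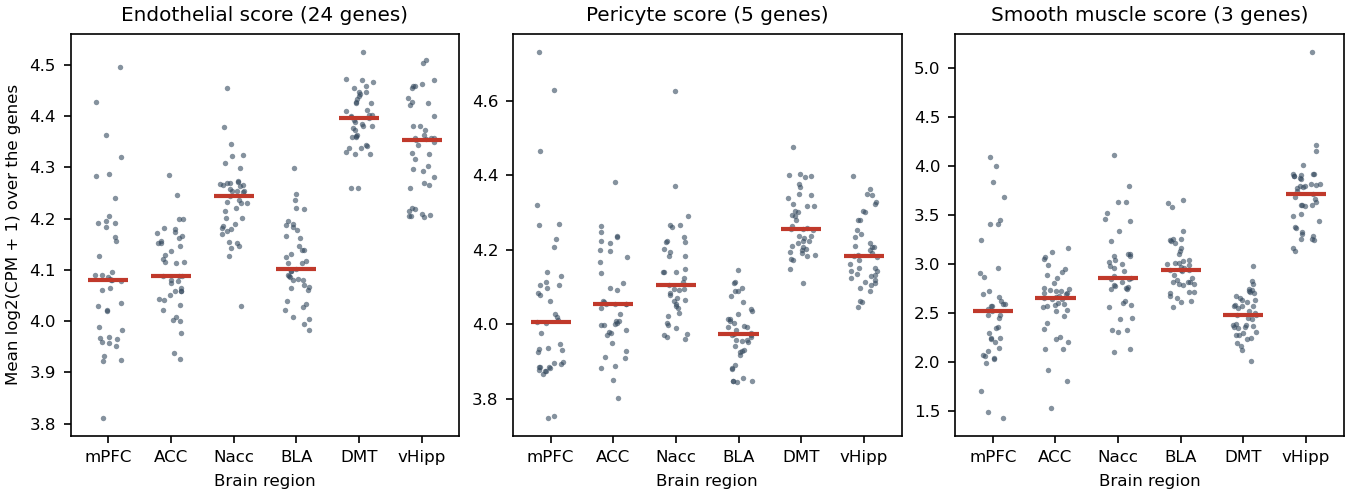
Class scores of all libraries by brain region (x axis). Each point is 1 library, the y axis is the mean log2(CPM + 1) over the genes of the class, and the bar is the region's median. The vHipp is highest for smooth muscle genes (median 3.72), while the DMT has the highest endothelial and pericyte medians (4.40 and 4.26) and the lowest smooth muscle median (2.48).

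To ask how the vessel genes differ between regions, each region was compared with the mean of the other 5 over the libraries of all 41 mice. Differences between regions were common in the transcriptome, so the members' counts are read against the share of all 17381 genes called. The members called numbered 26 for the mPFC (73.4% of all genes), 26 for the ACC (74.4%), 14 for the Nacc (76.8%), 24 for the BLA (73.4%), 27 for the DMT (85.5%) and 21 for the vHipp (78%). The Nacc had the fewest, 14 of 32. Their directions were uneven. In the mPFC 25 were lower and 1 higher, against 37% and 36.4% of all genes. The ACC also had 25 lower and 1 higher (39.6% and 34.8%), and the BLA 20 lower and 4 higher (34.9% and 38.5%). The DMT had 22 higher and 5 lower (42.2% and 43.3%), the vHipp 18 higher and 3 lower (37.6% and 40.4%), and the Nacc 9 higher and 5 lower (38.7% and 38.1%). The members' median log2 fold change was highest in the DMT (0.284) and vHipp (0.119), near 0 in the Nacc (0.038) and negative in the BLA (−0.123), ACC (−0.132) and mPFC (−0.138). Over all genes it lay between −0.022 and 0.008. The 5 neuron markers had a summed level with a median of 4287 CPM for DMT, 4436 for Nacc and 4538 for BLA punches, and of 5925 (vHipp), 6925 (mPFC) and 7379 CPM (ACC) for the others. Of these markers 4 were lower in the DMT (median log2 fold change of the 5 −1.185), while 5 were higher in the mPFC and 4 each in the ACC and the vHipp (0.438, 0.45 and 0.333), and the part of the neuron share in the members' directions was not tested.

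**Figure D2:**
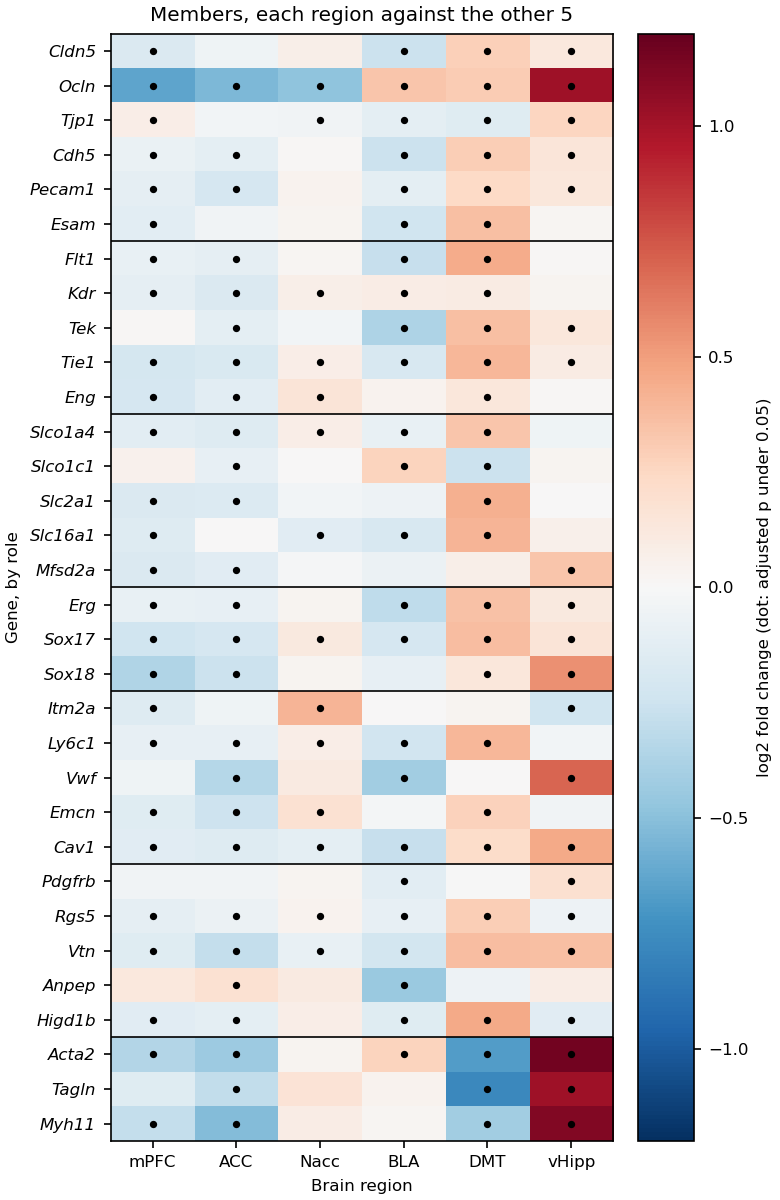
Log2 fold change of the 32 members (rows, grouped by role) in each region against the other 5 (columns). Colour gives the size and direction, and a dot marks an adjusted p under 0.05. The DMT column is mostly higher except for smooth muscle genes at the bottom, and the vHipp column is highest for Acta2 (1.15), Myh11 (1.11), Tagln (1.015) and Ocln (1.01).

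The junction and adhesion genes did not move as a block. Cldn5, the main barrier claudin, had a median of 25.9 CPM in the DMT (17.02 to 33.6) and 19.0 CPM in the BLA (14.2 to 25.2), and was higher in the DMT by 0.29 ± 0.03 on the log2 scale (SE, 41 mice, adjusted p = 6.78e-16). Cdh5, the endothelial cadherin, Pecam1, an adhesion molecule of endothelial contacts, and Esam, another adhesion molecule, were also higher in the DMT (0.29 ± 0.03, 0.24 ± 0.03 and 0.36 ± 0.02). Ocln, which encodes occludin, followed another order. Its vHipp libraries lay between 9.33 and 18.1 CPM (median 13.3), all above the highest library of the mPFC, where it ranged from 3.81 to 6.88 CPM. In the vHipp Ocln was 2.02-fold higher than in the other regions (log2 1.01 ± 0.04, adjusted p = 3.45e-65), and it was lower in the mPFC (−0.63 ± 0.05), ACC (−0.54 ± 0.05) and Nacc (−0.48 ± 0.05). Tjp1, the scaffold protein ZO-1, was highest in the vHipp in 35 of 41 mice, with a median of 127 CPM there (102 to 139) and 100 CPM in the DMT (76.7 to 111.4).

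All 5 receptor genes were higher in the DMT. Flt1, the VEGF receptor 1, was highest there in 40 of 41 mice. Its levels ran from 76.3 to 115 CPM in the DMT (median 98.7), from 54.1 to 82.7 in the BLA (64.7), and its regional medians elsewhere from 72.5 to 78.3. The ranges overlapped, but the difference in the DMT was 1.36-fold (log2 0.44 ± 0.02, adjusted p = 1.12e-58). Tie1 and Tek, the angiopoietin pathway's receptors, were higher in the DMT by 0.40 ± 0.03 and 0.365 ± 0.03, and Tek was lowest in the BLA in 35 of 41 mice (−0.37 ± 0.03). Kdr, the VEGF receptor 2, and Eng, the TGF-beta co-receptor endoglin, were higher by 0.09 ± 0.03 and 0.13 ± 0.02 in the DMT, and the Nacc (median 25.8 CPM) and the DMT (24.5 CPM) did not differ in Eng past the test.

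Among the transporters Slc2a1 had a single step. Its medians were 59.9, 61.9, 65.5, 64.1 and 66.9 CPM in the mPFC, ACC, Nacc, BLA and vHipp, where no neighbours in the order differed, and 84.4 CPM in the DMT (74.5 to 153). The DMT was higher by 0.43 ± 0.03 (adjusted p = 1.19e-30) and led in 40 of 41 mice. Slc16a1, the monocarboxylate transporter MCT1, was also highest in the DMT, in 38 of 41 mice, with a median of 45.1 CPM against 31.6 to 37.3 elsewhere (0.41 ± 0.035, adjusted p = 1.44e-24). The summed oligodendrocyte markers were highest in the same region, and their part in this result was not tested. Slco1a4, a transporter of organic anions, had its highest level in the DMT in 39 mice (0.34 ± 0.03). Slco1c1, the thyroid hormone transporter OATP1C1, went the other way, with its lowest median in the DMT (48.2 CPM, −0.26 ± 0.03) and its highest in the BLA (65.7 CPM). Mfsd2a, which carries lipids containing docosahexaenoic acid and restrains transcytosis at the barrier, did not differ between neighbours in the order mPFC, ACC, BLA, Nacc and DMT (medians 15.7 to 17.9 CPM) and was higher in the vHipp (20.03 CPM, 0.33 ± 0.04, adjusted p = 3.65e-14).

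The endothelial transcription factors Erg and Sox17 were higher in the DMT (0.35 ± 0.03 and 0.37 ± 0.04), and Erg was lower in the BLA (−0.31 ± 0.03). Sox18, a relative of Sox17 in vessel development, was highest in the vHipp (median 5.84 CPM, 3.11 to 8.07, log2 0.54 ± 0.05) and lowest in the mPFC (3.52 CPM, −0.36 ± 0.05). Itm2a had the largest increase of any member in the Nacc. Its level there was 34.6 to 52.0 CPM (median 45.8), against medians from 30.97 in the vHipp to 37.05 in the DMT, and it was highest in the Nacc in 38 of 41 mice (0.40 ± 0.03, adjusted p = 2.91e-36). Emcn was also higher in the Nacc (0.18 ± 0.04) and in the DMT (0.28 ± 0.04). Vwf, made by arteries and veins more than by capillaries, was highest in the vHipp with 10.7 to 30.5 CPM (median 17.5), 1.62-fold above the other regions (0.70 ± 0.07, adjusted p = 1.27e-21), and Cav1, the coat protein of caveolae, was higher there as well (0.46 ± 0.04). Ly6c1, a surface antigen of brain endothelium, was highest in the DMT (0.40 ± 0.03). Ly6c1 has a near-identical neighbour, Ly6c2, to which some of its reads may have been given. Ly6c2 had regional medians of 0.218 to 0.308 CPM with single libraries up to 5.91, so the values of Ly6c1 carry that uncertainty.

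Among the pericyte genes Rgs5 had its highest level in the DMT in 38 of 41 mice (93.5 to 118 CPM, median 105.3, against medians from 80.9 to 90.1 elsewhere). Higd1b, a mitochondrial protein gene used as a pericyte marker, was low throughout (medians 1.40 to 2.02 CPM) and highest in the DMT (0.46 ± 0.05, adjusted p = 4.60e-19). Vtn was high in both the DMT (63.9 CPM) and the vHipp (61.5 CPM) and lay between 42.1 and 46.9 CPM elsewhere. Pdgfrb, the receptor by which endothelium recruits pericytes, was 28.8 to 31.4 CPM in 5 regions and 34.3 CPM in the vHipp (0.19 ± 0.02), and in the DMT it did not pass the test (−0.01 ± 0.02). Anpep was lower in the BLA (−0.45 ± 0.07) and higher in the ACC (0.18 ± 0.07).

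The 3 smooth muscle genes had, with Ocln, the widest spread between regions and kept together. Acta2, encoding smooth muscle actin, had 8.62 to 43.2 CPM in the vHipp (median 14.6), 3.31 to 7.50 in the DMT (5.11), and 1.32 to 18.4 in the mPFC (4.90), so the vHipp and DMT did not overlap. In the vHipp Acta2 was 2.22-fold higher (log2 1.15 ± 0.08, adjusted p = 2.49e-33), Myh11, the smooth muscle myosin heavy chain, 2.16-fold higher (1.11 ± 0.07, adjusted p = 3.77e-40), and Tagln, the actin-binding protein transgelin, 2.02-fold higher (1.015 ± 0.087, adjusted p = 1.73e-24). In the DMT all 3 were lower, Tagln by −0.78 ± 0.10, Acta2 by −0.67 ± 0.09 and Myh11 by −0.41 ± 0.08. The ACC and mPFC were lower for Acta2 (−0.44 ± 0.09 and −0.35 ± 0.09) and for Myh11 (−0.52 ± 0.08 and −0.28 ± 0.08). Markers of meninges and fibroblasts moved with these genes in some regions but not in the BLA. Their summed level had its highest median in the BLA (292 CPM, 41.5 to 664). The median smooth muscle score there was 2.93, against 3.72 in the vHipp. In the vHipp 6 of the 8 markers were higher, and their summed level ran from 94.9 to 335 CPM there, from 53.04 to 267 in the DMT and from 20.7 to 394 in the mPFC. Within a region, the smooth muscle score and that sum had a correlation of 0.856 over the 41 mPFC libraries, 0.84 in the vHipp, 0.195 in the DMT and −0.224 in the BLA. The part of meninges in the smooth muscle results was not tested.

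Some BLA values moved with the choroid plexus. With all libraries, Ocln and Slco1c1 were higher in the BLA (0.33 ± 0.04 and 0.27 ± 0.03), as was Acta2 (0.27 ± 0.09). When the BLA was represented by its 11 libraries under 1000 CPM of choroid plexus markers alone, Ocln was lower (−0.406 ± 0.06, adjusted p = 8.06e-10), and Slco1c1 was at −0.07 ± 0.044 (adjusted p = 0.17) and Acta2 at 0.178 ± 0.164 (adjusted p = 0.372). The number of BLA calls fell from 24 to 15. With all libraries 73.4% of all genes were called, and the share in the smaller fit is not given here. That fit holds 11 BLA libraries in place of 41, and the part of this in the fall was not tested. Those of Tek (−0.328), Anpep (−0.499), Erg (−0.281), Cav1 (−0.194) and Flt1 (−0.14) stayed, and those of Vwf (−0.272, adjusted p = 0.0627) and Cldn5 (−0.111, adjusted p = 0.108) did not. The libraries were chosen by their choroid plexus markers after the values were seen.

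The mPFC and ACC, both of the frontal cortex, were close to each other: 7 members were called between them, against 39.1% of all genes. Vwf, Slco1c1, Vtn, Tek and Tjp1 were higher in the mPFC, by 0.24 ± 0.09 for Vwf and 0.13 ± 0.04 for Slco1c1, while Slc16a1 (−0.13 ± 0.05) and Itm2a (−0.09 ± 0.04) were lower. With the mouse as a block in the fit over regions, 12 calls over 10 members were added to the 138 without it, all with absolute log2 fold changes of at most 0.203. They include Mfsd2a, higher in the DMT (0.068 ± 0.024, adjusted p = 0.00667) and lower in the BLA (−0.072 ± 0.025, adjusted p = 0.00542), and Cldn5, higher in the Nacc (0.069 ± 0.029, adjusted p = 0.0223).

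Genes outside the members gave the wider setting, and their counts are read against the shares of all genes called higher and lower. These shares were 42.2% and 43.3% in the DMT, 37.6% and 40.4% in the vHipp and 38.5% and 34.9% in the BLA. In the mPFC they were 36.4% and 37%, and in the ACC 34.8% and 39.6%. Of 20 further endothelial genes 14 were higher and 5 lower in the DMT, 10 were higher and 3 lower in the vHipp, and 2 were higher and 15 lower in the BLA. Abcb1a, the drug efflux pump of the barrier, was higher in the DMT (0.42 ± 0.03) and lower in the BLA (−0.38 ± 0.03), and Adgrf5, an adhesion receptor of endothelium, was higher in the DMT (0.49 ± 0.02). Of 18 further mural genes 13 were higher and 2 lower in the DMT, and 14 and 12 were lower in the mPFC and ACC with 0 higher. Abcc9 and Kcnj8, the subunits of the potassium channel of pericytes, were higher in the DMT by 0.85 ± 0.03 and 0.72 ± 0.05, while Lmod1, a smooth muscle gene, was lower (−0.92 ± 0.14) and was higher in the vHipp (0.82 ± 0.12), as were Cnn1 (0.85 ± 0.15) and Des (0.62 ± 0.06), also of contractile cells. Some list genes are also made by neurons, among them Lef1 (3.79 ± 0.03) and Zic1 (4.75 ± 0.075) in the DMT. Of 30 genes of vessel signalling pathways 13 were higher and 10 lower in both the DMT and the vHipp. Angpt2, a ligand of the Tek receptor, was higher in the DMT (3.09 ± 0.06), as were Ndp (1.44 ± 0.03), a ligand of the barrier's Wnt signalling, and Notch3 (0.66 ± 0.03), the Notch receptor of mural cells. Wnt7b, another barrier Wnt ligand, was higher in the ACC (1.15 ± 0.05) and lower in the DMT (−1.64 ± 0.065), and Wnt7a was higher in the Nacc (1.06 ± 0.035). Ednra, the endothelin receptor of smooth muscle, was higher in the vHipp (0.72 ± 0.03).

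To ask what follows a brief social contact, mice taken after it were compared with mice taken without it in each region, with the 3 conditions in the fit. Mfsd2a and Ly6c1 were higher after social interaction in 5 regions each, and Slc16a1 was lower in 4. Over the 6 regions 19 of 192 member tests passed. The mPFC had 3 members called higher and 1 lower (7.4% of all genes, 4.81% higher and 2.59% lower), the ACC 2 higher and 4 lower (4.15%, 2.42% and 1.74%), the BLA 2 higher and 1 lower (1.49%, 0.825% and 0.669%), the DMT 2 higher and 2 lower (1.6%, 1.04% and 0.555%), the vHipp 2 higher (1.21%, 0.821% and 0.388%) and the Nacc 0 (0%). In the Nacc, with 0 calls, 3 members had an unadjusted p under 0.05, and 391 of all genes did. The 6 regions come from the same mice and are not independent. The labels give the sets no further difference, and anything else done for a set cannot be told apart from the social interaction.

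Mfsd2a ranged from 11.5 to 17.6 CPM without social interaction in the BLA (median 13.9) and from 16.4 to 34.9 after it (19.8), so that 16 of the 20 libraries after social interaction lay above all 21 without it. In the BLA it was 1.45-fold higher (log2 0.538 ± 0.065, adjusted p = 8.66e-06). In the DMT Mfsd2a had 13.8 to 19.1 CPM (median 15.2) without and 16.0 to 43.9 (20.6) after social interaction, which was a difference of 0.46 ± 0.07 (adjusted p = 5.60e-04). In the vHipp it had 16.0 to 23.7 CPM (17.3) without and 19.3 to 47.1 (23.7) after it, a difference of 0.50 ± 0.08 (adjusted p = 2.05e-04). The mPFC had 10.3 to 16.6 CPM (13.7) and then 13.9 to 35.2 (17.5), with a difference of 0.45 ± 0.08 (adjusted p = 2.09e-04). The ACC had 11.5 to 18.1 CPM (14.4) and then 14.4 to 34.0 (17.9), with a difference of 0.40 ± 0.07 (adjusted p = 3.08e-04). In these 5 regions all 20 libraries after social interaction exceeded the median of those without it, although the ranges overlapped in each.

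In the Nacc, Mfsd2a had 13.02 to 21.5 CPM without (median 15.4) and 14.0 to 38.4 after social interaction (18.5), and the difference of 0.255 ± 0.089 did not pass (adjusted p = 1). Without the 12 libraries that matched another mouse, the ranges were 13.02 to 17.4 and 17.1 to 38.4 CPM, all 14 libraries after social interaction lay above the median without it, and Mfsd2a was called (0.47 ± 0.09, adjusted p = 0.040), 1 of 4 genes called in that fit (0.0256% of all genes). Ly6c1 moved alike in the Nacc, from 0.23 ± 0.08 (adjusted p = 1) with all libraries to 0.39 ± 0.07 (adjusted p = 0.0591) without the 12. Slc16a1 was at −0.083 ± 0.073 (adjusted p = 1) with all libraries and at −0.20 ± 0.07 (adjusted p = 0.465) without the 12.

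Ly6c1 was higher after social interaction in the other 5 regions. It went from a median of 15.2 to 19.6 CPM in the mPFC (0.34 ± 0.08, adjusted p = 0.0034), from 16.1 to 18.4 in the ACC (0.28 ± 0.06, adjusted p = 0.00725) and from 20.3 to 25.1 in the DMT (0.28 ± 0.05, adjusted p = 6.56e-04). In the BLA it went from 13.9 to 16.6 CPM (0.275 ± 0.066, adjusted p = 0.0242) and in the vHipp from 16.6 to 18.8 (0.26 ± 0.06, adjusted p = 0.0154). All 20 libraries after social interaction exceeded the median without it in the mPFC, BLA and DMT, 17 did in the ACC and 15 in the vHipp. Ly6c2, its near-identical neighbour, was at most 5.91 CPM in any library.

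Slc16a1 was lower after social interaction in 4 regions. Its median went from 36.9 to 30.99 CPM in the mPFC (−0.29 ± 0.07, adjusted p = 0.00731), from 39.8 to 34.0 in the ACC (−0.30 ± 0.07, adjusted p = 0.00549), from 36.4 to 29.3 in the BLA (−0.27 ± 0.07, adjusted p = 0.0424) and from 48.9 to 43.9 in the DMT (−0.22 ± 0.06, adjusted p = 0.0323). In the vHipp it went from 41.5 to 35.1 CPM without passing edgeR's test (−0.246 ± 0.067, adjusted p = 0.0559). DESeq2 called it there (adjusted p = 0.0227). In the mPFC 20 of 20 libraries after social interaction lay below the median without it, in the ACC 19, and in the BLA, DMT and vHipp 18 each, with overlapping ranges throughout.

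**Figure D3:**
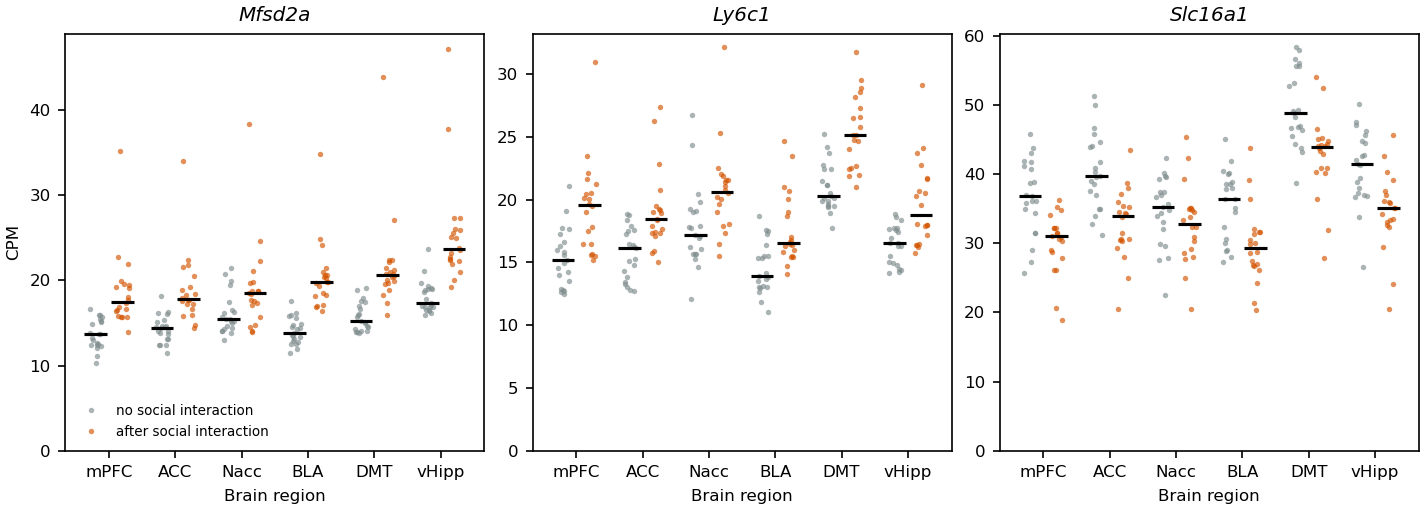
Level in CPM (y axis, from 0) of Mfsd2a, Ly6c1 and Slc16a1 in each library by region (x axis). Grey points are the 21 mice without and orange points the 20 mice after social interaction, and the bar is the median. Mfsd2a and Ly6c1 shift up and Slc16a1 shifts down after social interaction, and the highest Mfsd2a point in each region, from 34.0 to 47.1 CPM, is the same mouse.

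A single mouse stood apart in these genes and was picked out after its values were seen. Mouse 57, a Ctrl_Veh mouse taken after social interaction, had the highest Mfsd2a and Slc2a1 of all 41 mice in all 6 regions and the highest Ly6c1 in 5. Its Mfsd2a was 35.2, 34.0, 38.4, 34.9, 43.9 and 47.1 CPM in the mPFC, ACC, Nacc, BLA, DMT and vHipp, where the next mouse had 22.8, 22.4, 24.6, 24.8, 27.1 and 37.7 CPM. Its Slc2a1 was 104.8 to 153 CPM, above the other mice's highest values of 73.2 to 104. It had the lowest Tek in 6 regions, the lowest Kdr and Slc16a1 in 5 and the lowest Slco1a4 and Itm2a in 4. Without this mouse, left out after the values were seen, Mfsd2a remained called in the 5 regions with differences from 0.341 (ACC) to 0.477 (BLA). Ly6c1 and Slc16a1 remained called in the mPFC, ACC and DMT and Ly6c1 in the vHipp, while in the BLA they did not pass (0.258 ± 0.067, adjusted p = 0.0564, and −0.245 ± 0.069, adjusted p = 0.0808).

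Other members passed in 1 region, or 2 for Tie1. Slco1c1 was higher in the mPFC (0.21 ± 0.05, adjusted p = 0.00297). In the ACC Slco1a4 (−0.18 ± 0.04, adjusted p = 0.0073), Tie1 (−0.17 ± 0.04, adjusted p = 0.0156) and Myh11 (−0.35 ± 0.10, adjusted p = 0.0435) were lower, and in the DMT Tie1 was lower (−0.175 ± 0.044, adjusted p = 0.0286). Without the 6 DMT libraries holding other tissue the call of Tie1 there was lost (−0.174 ± 0.05, adjusted p = 0.0828). Without mouse 57 the calls of Myh11 (adjusted p = 0.0636) and of Tie1 in the DMT (adjusted p = 0.0571) were lost. Cldn5, Pecam1, Cdh5 and Flt1 were not called in any region. When the 6 libraries of a mouse were summed, 6 members were called (9.21% of all genes, 5.01% higher and 4.2% lower): Mfsd2a (0.43 ± 0.06), Ly6c1 (0.28 ± 0.05) and Slco1c1 (0.09 ± 0.02) higher, and Slc16a1 (−0.24 ± 0.06), Tie1 (−0.09 ± 0.03) and Vtn (−0.115 ± 0.037) lower. Without mouse 57, Tie1 and Vtn were lost from that list (adjusted p = 0.0678 and 0.0718). The sums follow the labels, so those with a mismatched Nacc library take in a punch of another mouse. With the Nacc left out of the sums, a fit added after the data were seen, all 6 stayed called in the same direction.

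**Figure D4:**
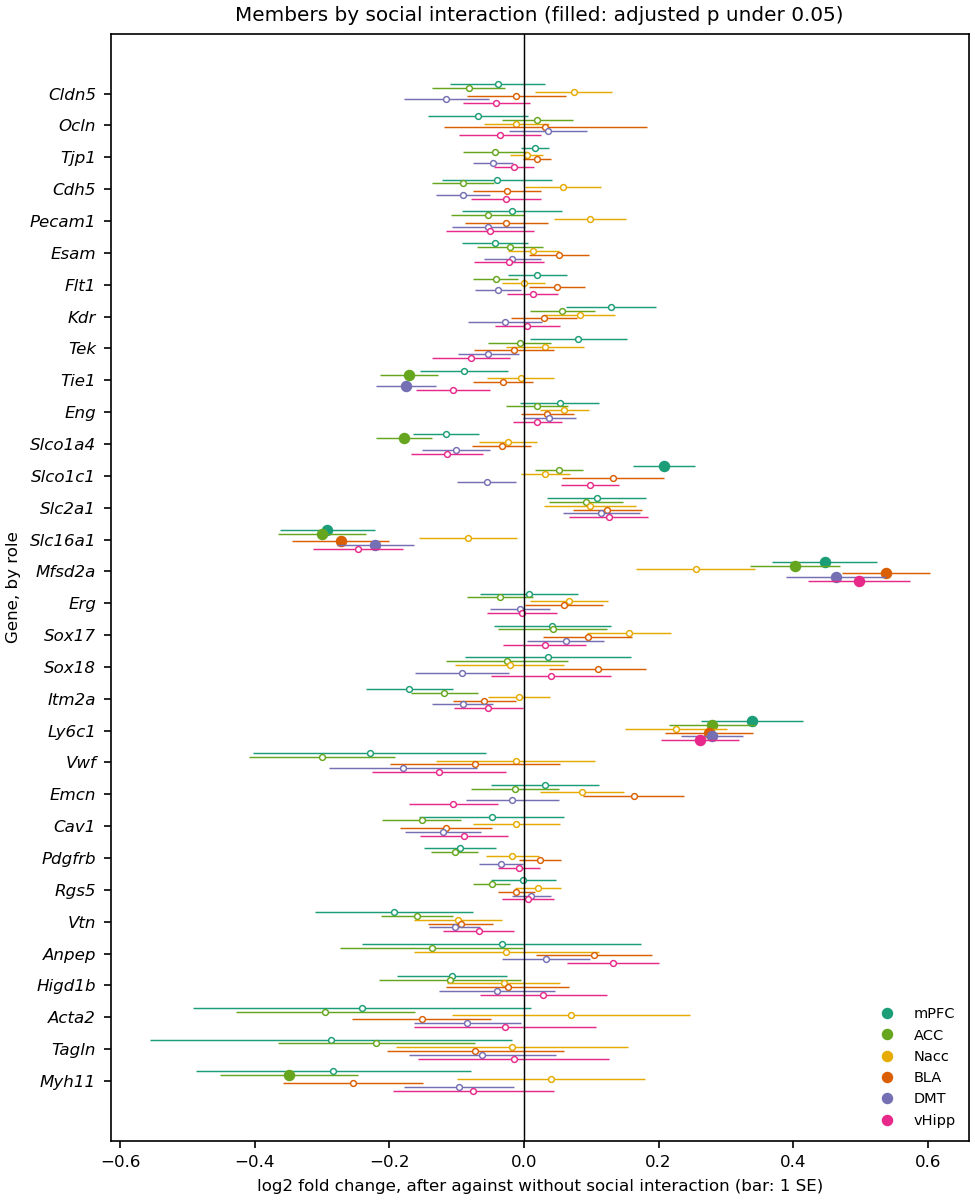
Log2 fold change after against without social interaction (x axis) for the 32 members (y axis, by role), 1 point per region with a bar of 1 SE. Filled points have an adjusted p under 0.05. Mfsd2a (0.26 to 0.54) and Ly6c1 (0.23 to 0.34) lie to the right in all 6 regions, Slc16a1 (−0.08 to −0.30, with −0.08 in the Nacc with all its libraries) to the left, and the smooth muscle genes have wide bars.

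The wider lists are read against the shares of all genes given above, 7.4% in the mPFC, 4.15% in the ACC and 1.6% in the DMT. Of the 30 pathway genes 2, 1, 0, 1, 2 and 1 were called in the order mPFC, ACC, Nacc, BLA, DMT and vHipp, of the 20 further endothelial genes 1 in the DMT and 0 elsewhere, and of the 18 further mural genes 1, 2, 0, 2, 2 and 0. Notch4, the Notch receptor of endothelium, was higher in the mPFC (0.34 ± 0.10) and BLA (0.30 ± 0.07). Cspg4, the proteoglycan NG2 of pericytes and of oligodendrocyte precursors, was higher in the mPFC (0.21 ± 0.05), ACC (0.16 ± 0.05) and BLA (0.14 ± 0.03), and Atp13a5, a pericyte gene, was lower in the ACC (−0.16 ± 0.05), BLA (−0.14 ± 0.04) and DMT (−0.135 ± 0.035). Wnt7b was lower in the mPFC (−0.23 ± 0.07) and DMT (−0.15 ± 0.04), Angpt1, which activates the Tek receptor, was lower in the ACC (−0.235 ± 0.066), and Notch3 was lower in the DMT (−0.16 ± 0.04). Pdgfb, the endothelial ligand of Pdgfrb, was higher in the vHipp (0.155 ± 0.039), and Ramp2, a co-receptor for adrenomedullin, in the DMT (0.245 ± 0.067).

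The question of the study, whether adversity and SAFit2 leave a mark in adult brains, was asked of the members in 3 comparisons per region and set. ELA_Veh was compared with Ctrl_Veh, ELA_SAFit2 with ELA_Veh, and ELA_SAFit2 with Ctrl_Veh, which share groups. No member passed the test in any of them. Without social interaction 0 of 576 tests were called and 19 (3.3%) had an unadjusted p under 0.05, against 4.25% of all genes. After it 0 of 576 were called and 45 (7.81%) had an unadjusted p under 0.05, against 4.5% of all genes. DESeq2 called 0 members in both. Over all genes edgeR's test called 2 and 1, which was 0.00632% of the genes in either mPFC comparison with ELA_Veh without social interaction, 0.00636% in ELA_Veh against Ctrl_Veh in the vHipp after it, and 0% in the others.

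Without social interaction the smallest unadjusted p-values were those of Acta2 and Myh11 in the DMT of ELA_SAFit2 against Ctrl_Veh mice. Acta2 had 3.74 to 5.46 CPM in Ctrl_Veh (median 4.30), 4.20 to 6.11 in ELA_Veh (4.98) and 4.93 to 7.50 in ELA_SAFit2 mice (6.34), with a log2 difference of 0.44 ± 0.13 (unadjusted p = 0.00216, adjusted p = 0.996 by edgeR's quasi-likelihood test). Myh11 had medians of 6.63, 7.55 and 8.69 CPM, a difference of 0.42 ± 0.14 (adjusted p = 0.996). Vwf followed in the Nacc, with 12.2 to 25.3 CPM (median 13.6) in ELA_Veh and 7.42 to 16.3 (10.2) in ELA_SAFit2 mice (−0.60 ± 0.20, adjusted p = 0.298). Without the mismatched libraries the Vwf difference was −0.682 ± 0.209 (adjusted p = 0.81). The groups overlapped in each case.

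After social interaction Eng in the vHipp had the smallest unadjusted p-value. Eng had 19.8 to 23.05 CPM in Ctrl_Veh (median 21.02), 23.8 to 29.2 in ELA_Veh (25.01) and 20.7 to 27.3 in ELA_SAFit2 mice (24.9). The ELA_Veh mice did not overlap the Ctrl_Veh mice, and their difference of 0.26 ± 0.07 had an unadjusted p of 2.45e-04 and an adjusted p of 0.554 by edgeR's test. Kdr in the vHipp had medians of 18.9, 22.9 and 22.6 CPM (ELA_Veh against Ctrl_Veh 0.29 ± 0.09, adjusted p = 0.728). Cdh5 in the ACC had medians of 10.8, 11.9 and 13.5 CPM (ELA_SAFit2 against Ctrl_Veh 0.29 ± 0.08, adjusted p = 0.442). In the mPFC of ELA_SAFit2 against Ctrl_Veh mice 8 members had an unadjusted p under 0.05, all of them higher, against 3.47% of all genes, and the members' median was 0.162. Both comparisons with Ctrl_Veh share its 6 mice, mouse 57 among them. Without mouse 57, 36 of the 576 tests (6.25%) had an unadjusted p under 0.05.

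The change of the condition effects between the sets was tested directly. For the effect of adversity and of SAFit2 after adversity, 0 of 384 tests were called and 20 (5.21%) had an unadjusted p under 0.05, against 4.38% of all genes. In the change of the SAFit2 effect 0.0318% (ACC), 0.0315% (Nacc, 0% without the 12 mismatched libraries), 0.0379% (DMT) and 0.0382% (vHipp) of all genes were called, and 0% elsewhere. The smallest unadjusted p-values were those of Eng in the vHipp (0.31 ± 0.09, adjusted p = 1), Tie1 in the BLA (0.33 ± 0.11, adjusted p = 1) and Sox18 in the DMT (−0.52 ± 0.17, adjusted p = 1). In the sums over the 6 libraries of a mouse 0 members were called between conditions by either tool (0.00575% of all genes in both comparisons with Ctrl_Veh, 0% between ELA_SAFit2 and ELA_Veh), and Vwf had the smallest unadjusted p (ELA_Veh against Ctrl_Veh 0.358 ± 0.095, adjusted p = 0.32). In the DMT the 6 group means of the endothelial score spanned 0.062 with a median SD within groups of 0.056, and in the mPFC they spanned 0.135 with a median SD of 0.145.

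**Figure D5:**
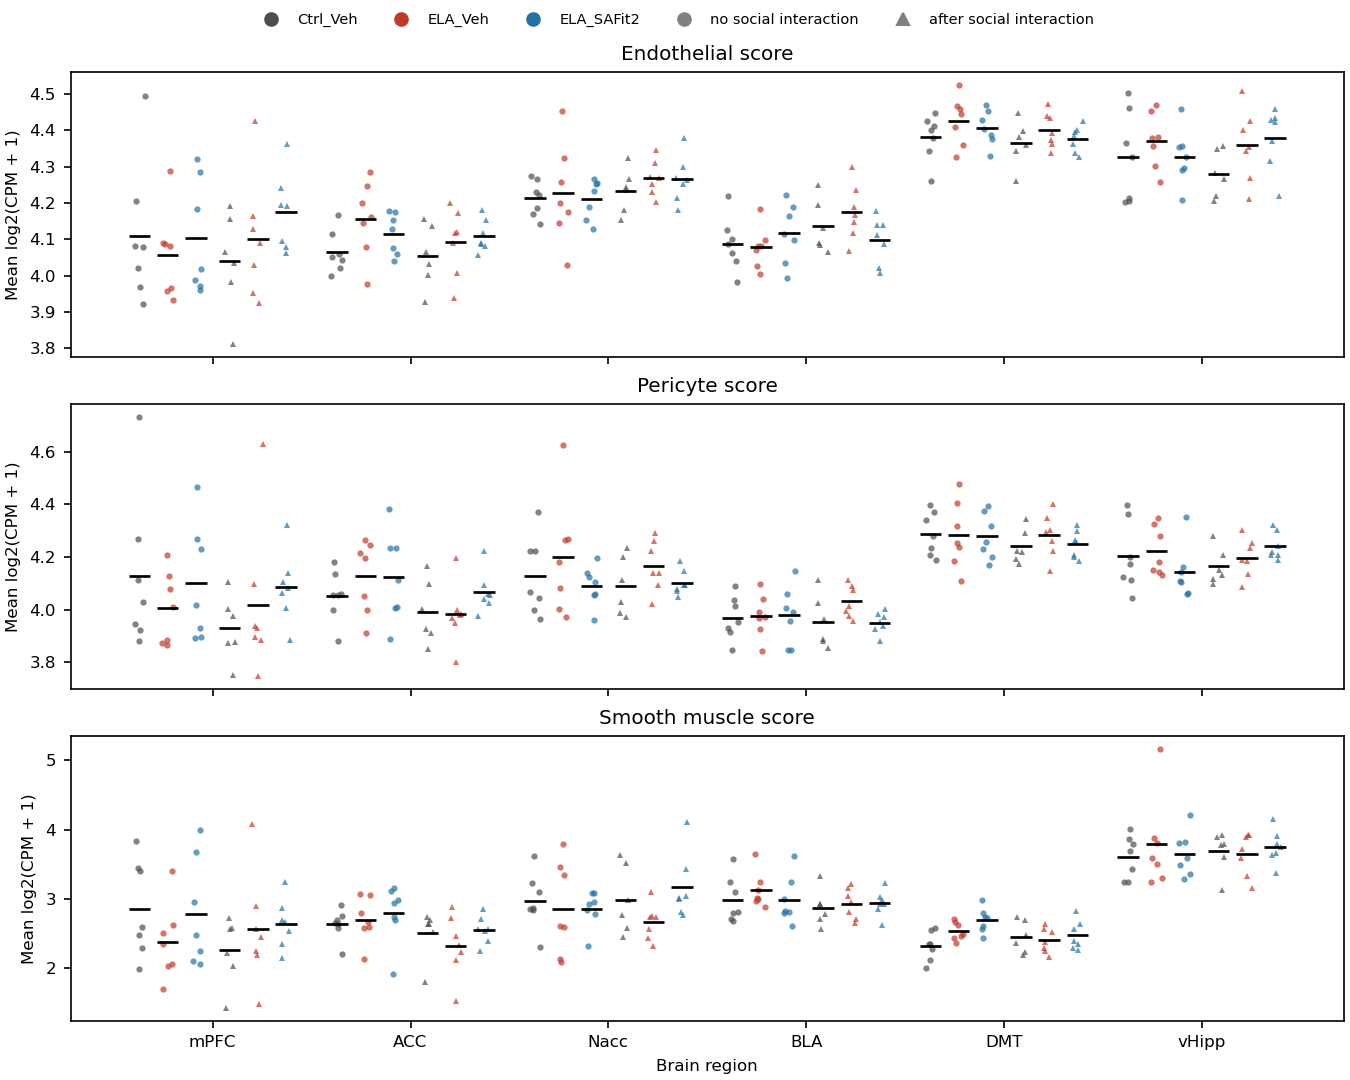
Class scores (y axis, mean log2(CPM + 1)) of each library by region (x axis), with the 3 conditions by colour and the 2 sets by symbol (circles without, triangles after social interaction). The bar is the mean of a group of 6 or 7 mice. The groups of a region overlap in each panel, and the endothelial means span 0.062 in the DMT and 0.135 in the mPFC.

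Levels of the members also varied together between libraries of the same region and group. After each library's value was centred on the mean of its region and group, the endothelial score had a correlation of 0.771 with the pericyte score and 0.745 with the smooth muscle score over all libraries. Both correlations were highest in the mPFC and lowest in the DMT. Over all libraries the endothelial score also rose, less closely, with the summed markers of astrocytes, microglia and meninges, and fell with those of neurons. The astrocyte correlation was above that between the pericyte and smooth muscle scores, so the variation together was not limited to vessel genes. These are descriptions without a test, since the 6 libraries of a mouse share the animal and the scores share each library's depth. The 3 smooth muscle genes were the tightest, each with a correlation of 0.888 to 0.918 with the mean of the other 2. Of the 496 pairs of members 453 had a correlation above 0, with a median of 0.273. Mfsd2a (0.082), Slc16a1 (0.089) and Ocln (0.191) had low pooled correlations with the mean of the other endothelial genes, and so had Higd1b (0.126) with the other pericyte genes. The pooled values cover regions that differ. Ocln had a correlation of 0.651 in the mPFC, 0.539 in the Nacc and −0.254 in the BLA, Mfsd2a one of 0.389 in the mPFC and −0.315 in the DMT, and Slc16a1 one of 0.465 in the BLA and −0.078 in the ACC.

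Mfsd2a, Ly6c1 and Slc16a1, whose level differed after social interaction, and Slc2a1, which passed in no region, varied together within the groups. Mfsd2a had a correlation of 0.784 with Slc2a1, 0.662 with Ly6c1 and −0.610 with Slc16a1, and without mouse 57 these were 0.640, 0.563 and −0.481 over 240 libraries. Among the 126 libraries labelled as without social interaction, from 21 mice, the correlation of Mfsd2a with Slc16a1 was −0.494 and with Slc2a1 0.601. The pattern is thus also seen within that set by label. The set includes the Nacc libraries labelled mice 1, 37, 39 and 69, which matched mice taken after social interaction, and their part was not tested. Among 17349 other genes, those closest to the endothelial score were Axl (0.762), Nid1 (0.734), Lamb2 (0.727) and Abcb1a (0.727). Those closest to the smooth muscle score were Myl9 (0.839), Fbln5 (0.797), Nid1 (0.729), Cytl1 (0.728) and Col3a1 (0.720). Nid1 and Lamb2 encode basement membrane proteins, Myl9 a myosin light chain of smooth muscle and Col3a1 a fibrillar collagen of fibroblasts.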

How the data were processed

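Poly-A RNA of bilateral punches, pooled within a mouse, was sequenced with a stranded Illumina kit. The values are estimated counts per gene by salmon, deposited as 1 table of 56691 genes, 12.12% of whose values are not whole. They were rounded to whole numbers. The submitters' processing notes name STAR and DESeq2, with versions not given, and the builds GRCm39 and mm39. Of the gene IDs 52073 matched GENCODE M21 (GRCm38) and 978 a RefSeq symbol, 3640 were left out, and the 21915 protein-coding genes were kept. A gene was tested when its counts summed to 100 or more and 6 or more libraries held a count.

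Library sizes were scaled by TMM, and edgeR's quasi-likelihood test (edgeR 4.0.16, R 4.3.3) was fitted across all genes, with Benjamini-Hochberg adjustment over all genes of a comparison and a threshold of 0.05. Every adjusted p in the text comes from it unless DESeq2 is named. Regions were compared in 1 fit over all libraries, each with the mean of the other 5, with terms for region and group and none for the mouse. Social interaction and conditions were compared within each region in a fit with the 6 groups, and again on the summed counts of a mouse. Errors are SEs of log2 fold changes. Levels are CPM on TMM-scaled library sizes, whose total counts ran from 20804247 to 43351424, and correlations use log2(CPM + 1). Sums of cell type markers are CPM of protein-coding counts without TMM scaling. Scripts were tested on simulated data.

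The same number marks the same mouse in every region, so the numbers pair the regions. The exceptions are 12 Nacc libraries and, less clearly, 1 ACC library, which matched another mouse. Alternatives were DESeq2 1.42.0, median-of-ratios size factors, no filter, a block for the mouse, each set alone, leaving out libraries with other tissue or another mouse's expression, and the choroid plexus sum as a covariate. Leaving out mouse 57 and using the BLA libraries low in choroid plexus were added after the data were seen. So were the choroid plexus covariate and a fit of the summed counts of a mouse without the Nacc. The members and all gene lists were chosen with earlier results of these data known. All 32 members are named by role. Full statistics go to at most 10 members past the threshold with the largest changes per comparison or, where none passed, to the 3 with the smallest unadjusted p-values. Other genes named are the 5 closest to each of the endothelial and smooth muscle scores (1 of them is not reported here) and members of the lists, and Ly6c2 was added after its values were seen. Members that passed below those ranks are named where their order of regions is described. The main fit over regions has no term for the mouse, so its p-values measure the spread between libraries and treat the libraries of a mouse as independent. With litters not given, the other p-values measure the spread between mice, some of which may be littermates.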

Additional observations from a re-analysis of the deposited data

Results flagged for a closer look

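In each group of 6 or 7 mice, a library was singled out when its gap to the nearest other, divided by the group's range, passed Dixon's 95% critical value. The 3 class scores and 5 members (Mfsd2a, Ly6c1, Slc16a1, Slc2a1 and Pecam1) were examined in the 36 groups. These members were chosen after the values of mice 57 and 61 in them were seen, so the number singled out is no measure of how often this happens. Of the 288 sets of values 34 held such a library, where chance gives about 1 in 20, and the 6 libraries of a mouse are not independent. Mouse 57 gave 14 of these and mouse 61 gave 3.

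Mouse 57 was a Ctrl_Veh mouse taken after social interaction, and values of the next mouse of its group follow in parentheses. By region, its Mfsd2a in CPM was mPFC 35.2 (19.4), Nacc 38.4 (19.9), BLA 34.9 (20.98), DMT 43.9 (21.5) and vHipp 47.1 (25.01). Its Slc2a1 was mPFC 114.6 (65.3), ACC 104.8 (68.6), Nacc 132 (69.2), DMT 153 (96.0) and vHipp 119 (69.6). Its Ly6c1 was 30.96 CPM in the mPFC (20.5), 32.15 in the Nacc (21.5) and 29.1 in the vHipp (17.9), and its Slc16a1 was 19.0 CPM in the mPFC (30.4). Mfsd2a and Slc2a1 were thus high, and Slc16a1 low, in several punches of 1 animal.

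Mouse 61, an ELA_Veh mouse taken after social interaction, had Pecam1 of 7.13 CPM in the ACC (next 12.1), 8.65 in the DMT (16.7) and 7.405 in the vHipp (16.15). Other Pecam1 values that stood apart were 11.7 CPM in the ACC of an ELA_SAFit2 mouse (after social interaction, next 13.9) and 21.6 CPM in the mPFC of mouse 41 (Ctrl_Veh without social interaction, next 15.8). Mouse 41 also had 73.2 CPM of Slc2a1 in the mPFC (60.4). Slc2a1 was high in mouse 15 (ELA_SAFit2 without social interaction) in the BLA (77.5 CPM, next 67.7) and the DMT (104 CPM, next 84.9), and in the vHipp of mouse 13 (ELA_Veh without social interaction, 80.4 CPM, next 67.0).

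Mouse 63 (ELA_SAFit2 after social interaction) had Mfsd2a of 27.1 CPM in the DMT (20.7) and Slc16a1 of 24.1 CPM in the vHipp (33.1). Mfsd2a was 23.7 CPM in the vHipp of mouse 97 (Ctrl_Veh without social interaction, next 19.2). It was 21.5 CPM in the Nacc library labelled mouse 39 (by label ELA_SAFit2 without social interaction, next 15.7). Ly6c1 was 15.5 CPM in the Nacc library labelled mouse 59 (by label ELA_Veh after social interaction, next 19.6). Both Nacc libraries are among those that matched another mouse than their label. The library labelled mouse 39 matched a mouse taken after social interaction. The library labelled mouse 59 matched a mouse taken without it.

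Among the class scores, the smooth muscle score was 5.16 in the vHipp of mouse 69 (ELA_Veh without social interaction, next 3.88), whose meninges markers summed to 335 CPM, the most of any vHipp library. It was low in mouse 7 (ELA_SAFit2 without social interaction) in the ACC (1.92, next 2.70) and the Nacc (2.33, next 2.79), and in the ACC of mouse 17 (Ctrl_Veh after social interaction, 1.80, next 2.52). The pericyte score was 4.63 in the mPFC of mouse 93 (ELA_Veh after social interaction, next 4.10) and 4.35 in the vHipp of mouse 87 (ELA_SAFit2 without social interaction, next 4.16).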

How the results depend on the processing

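The 138 region calls of members were all kept, in direction, by DESeq2, by median-of-ratios size factors, without libraries holding other tissue and with the replicate block for the mouse, which added 12. The block without the 12 mismatched Nacc libraries lost 4 and added 14, no filter on low counts lost 3 and added 5, and the mice without social interaction alone lost 19 and added 5. Between pairs of regions the block gave 365 member calls against 353 without it. No paired analysis was possible because the mice differ for comparisons of conditions or of social interaction, whose groups share no mouse. Members called in the Nacc against other regions fell from 14 to 8 with the mice without social interaction alone. Those in the BLA fell from 24 to 15 with its 11 libraries low in choroid plexus. There Ocln reversed (−0.41), and Slco1c1 no longer passed (−0.07, adjusted p = 0.17). The cause was not tested, and fewer libraries enter both fits. Of the 19 social interaction calls DESeq2 kept 19, no filter on low counts kept 18 and leaving out mouse 57 kept 15, with the BLA count falling from 3 to 1. Without libraries holding other tissue, of the 6 calls in the DMT and vHipp that of Tie1 in the DMT was lost, and Slc16a1 in the vHipp was added (−0.271, adjusted p = 0.0202). Without the 12 mismatched Nacc libraries the Nacc count rose from 0 to 1. Calls between conditions were 0 under each alternative run. Depth limits Higd1b, with counts from 14, more than the other members.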

Other observations

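Single mice held an unusual level of 1 member across regions in 15 cases, with the highest or lowest value of the 41 mice in at least 3 regions, 5 of them highest and 10 lowest. Pecam1 of mouse 61 was the lowest of all mice in 5 regions, with values in CPM of 8.51 (mPFC), 7.13 (ACC), 6.49 (BLA), 8.65 (DMT) and 7.405 (vHipp), where the other mice did not fall below 10.4, 11.7, 11.8, 15.3 and 13.9 CPM. The Nacc library labelled mouse 61 had 15.02 CPM, and the lowest Nacc value, 9.40 CPM, was in a library that matched another mouse than its label. Emcn was highest in mouse 31 in 5 regions.

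The levels were centred on the groups and averaged over the regions of a mouse other than the Nacc, which was left out. Slc16a1 and Mfsd2a then had a correlation of −0.728 over 41 mice (−0.618 over 40 without mouse 57), and Slc2a1 and Mfsd2a one of 0.888 (0.777). These are descriptions, and the averages share each mouse's libraries.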
